A study of Mus musculus with 28 samples.

Results

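The let-7 and miR-98 family comprises 9 main-arm miRNAs of alveolar macrophages (AMs), mmu-let-7a-5p, mmu-let-7b-5p, mmu-let-7c-5p, mmu-let-7d-5p, mmu-let-7e-5p, mmu-let-7f-5p, mmu-let-7g-5p, mmu-let-7i-5p and mmu-mir-98-5p. The members were taken by name, and all 9 were listed in each of the 4 deposited tables, among 607 miRNAs listed in at least 1 of them. The mice were humanized transgenic animals that express human SP-A1 and SP-A2 together (co-ex), made on the C57BL/6J SP-A knockout background, or SP-A knockout (KO) animals, so that mouse SP-A was missing in every group. Males and females, 12 weeks old, breathed filtered air (FA) or ozone (O3) for 3 h, and AMs were lavaged from the lung after 4 h of recovery. The 8 groups of genotype, sex and exposure held 4 libraries each in co-ex (co-ex females FA, co-ex females O3, co-ex males FA, co-ex males O3) and 3 libraries each in KO (KO females FA, KO females O3, KO males FA, KO males O3). The estrous cycle of the females was synchronized, and what drives the human genes was not given in the sources used here.

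let-7 miRNAs are among the most conserved miRNAs of animals. A mature let-7 strand is loaded into an Argonaute protein and guides it to messenger RNAs mainly through its seed, the bases near its 5' end that pair with the target, so that members with one seed can share targets. The family is known for holding back growth genes such as Ras, Hmga2 and Myc and for marking differentiated cells, and its maturation is blocked by the RNA-binding protein Lin28. In macrophages let-7 miRNAs are known to bear on Toll-like receptor signalling and cytokine messengers.

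The mature sequences are shown because the members share their whole seed and are told apart by only a few bases. They come from RefSeq (GRCm38.p6), are written 5' to 3', and carry the seed, bases 2 to 8, in capitals.
mmu-let-7a-5p: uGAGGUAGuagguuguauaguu
mmu-let-7b-5p: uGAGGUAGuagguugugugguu
mmu-let-7c-5p: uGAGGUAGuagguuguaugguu
mmu-let-7d-5p: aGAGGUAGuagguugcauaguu
mmu-let-7e-5p: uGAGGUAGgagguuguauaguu
mmu-let-7f-5p: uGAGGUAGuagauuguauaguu
mmu-let-7g-5p: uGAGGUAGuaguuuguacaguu
mmu-let-7i-5p: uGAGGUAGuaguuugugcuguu
mmu-mir-98-5p: uGAGGUAGuaaguuguauuguu

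All 9 were 22 bases long with the seed GAGGUAG. Counted from the 5' end and given as the base of let-7a-5p, its position and the base of the other member, let-7c-5p differed from let-7a-5p by A19G, let-7e-5p by U9G and let-7f-5p by G12A. let-7b-5p carried A17G and A19G, let-7d-5p U1A and U16C, let-7g-5p G12U and U18C, and miR-98-5p G11A and A19U. let-7i-5p was the farthest from let-7a-5p, with G12U, A17G, U18C and A19U. Of the 36 pairs of members, 4 differed by a single base and 10 by 2 bases. How reads with a mismatch were assigned to such close members was not given in the sources used here, so the split of reads between them carries that uncertainty.

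The hairpins of several members lie side by side in the mouse genome (GRCm38.p6). Mirlet7a-1 (chr13:48538179-48538272), Mirlet7f-1 (chr13:48537829-48537917) and Mirlet7d (chr13:48536012-48536114) lie on the minus strand in exons of the lincRNA 6720427I07Rik, with 262 bp between the first pair. Mirlet7c-2 (chr15:85706603-85706697) and Mirlet7b (chr15:85707319-85707403) lie 622 bp apart on the plus strand in an exon of the transcript Lncppara. Mirlet7c-1 (chr16:77599657-77599750) lies in an intron of Mir99ahg, 657 bp from Mir99a, and Mirlet7e (chr17:17830352-17830444) lies in an intron of Spaca6, 368 bp from Mir125a. Mirlet7f-2 (chrX:151912346-151912428) and Mir98 (chrX:151913214-151913321) lie 786 bp apart in an intron of Huwe1. Mirlet7g (chr9:106178840-106178927) lies in an intron of Wdr82, and Mirlet7i (chr10:122985640-122985724, minus strand) in an exon of the pseudogene D630033A02Rik. The hairpins on chromosomes 9, 16, 17 and X lie on the plus strand. A mature sequence made from more than one hairpin, such as let-7a-5p, let-7c-5p or let-7f-5p, does not show which hairpin it came from. Hairpins that the RefSeq table used here did not hold are not described.

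The 28 libraries held 41542 to 2082034 miRNA reads (median 490152). The smallest number of reads behind any value of a member was 11, for miR-98-5p in co-ex females O3 replicate 1, the shallowest library. Values are the deposited normalized values, read counts divided by a size factor within each table, so they were compared only within a table, and levels were set beside each other across tables as a share of all miRNA values in a library. AMs were checked by 7 miRNAs known from macrophages and myeloid cells, which together held 4.52% to 31.4% of a library, with at most 1 of the 7 at 0. In every table miR-21a-5p and miR-146b-5p had the highest means of the 7, as in KO females FA (59329 and 40139, against 3386 for miR-223-3p). The summed share therefore mostly follows these and is a weak check of the others. The lowest share of the 7 was in KO males FA replicate 3, a library that stood apart from the other KO males and is given below with and without. Its library code and those of KO females FA replicate 2 and replicate 3 lie apart from the codes of the other KO libraries. What the codes stand for was not given in the sources used here. All 3 of these are FA libraries, and no KO O3 library has a code near theirs. In KO females exposure therefore cannot be fully told apart from this split of the codes. Animals were exposed in groups of 4, and each library was labelled as 1 replicate with no word on pooling. The KO groups of 3 libraries held fewer libraries than animals exposed, and the reason was not given in the sources used here. The paper describes miRNAs that correlated well in 3 of 4 mice. Whether KO libraries were left out on that ground is not known, and such a choice would narrow the spread. P-values measure the spread between the libraries at hand, 4 or 3 in a group.

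The 9 members together took 11.4% to 41.2% of all miRNA values in a library. In co-ex females FA the share was 16.6%, 24.6%, 13.0% and 14.8% (mean 17.3% ± 5.13, SD, n = 4), and in co-ex females O3 it was 11.4%, 24.0%, 26.0% and 26.7% (22.0% ± 7.17, n = 4). In co-ex males FA it was 24.6%, 21.3%, 11.7% and 18.2% (18.9% ± 5.51, n = 4), and in co-ex males O3 24.6%, 27.8%, 23.0% and 19.2% (23.7% ± 3.57, n = 4). The exposures overlapped in both co-ex tables. In KO females the share was 35.2%, 35.0% and 32.1% in the 3 FA libraries and 25.5%, 20.9% and 22.7% in the 3 O3 libraries, so the exposures were apart, with O3 lower, and the mean went from 34.1% ± 1.77 to 23.0% ± 2.34. In KO males the share was 25.9%, 26.7% and 41.2% in the FA libraries and 27.0%, 26.2% and 27.7% in the O3 libraries, and the high value belonged to FA replicate 3. Without that library the mean in KO males was 0.662 points higher after O3, against 4.31 points lower with it (-4.31, O3 minus FA). No p is given for the share. The 95% Wilson intervals of the single libraries were at most 0.306 points to either side and cover counting error only, and they were far narrower than the spread between libraries.

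**Figure D1:**
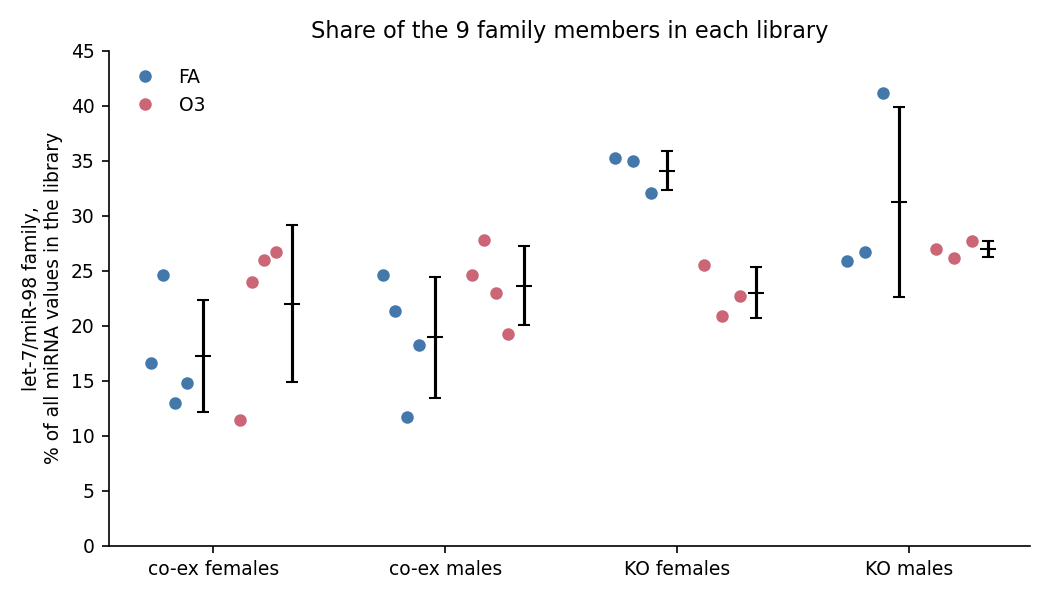
Share of the 9 let-7 and miR-98 members in all miRNA values (y axis, percent) for each library (points), with the mean and SD of each group beside the points, for the 4 tables after FA and O3. The KO females O3 libraries (20.9% to 25.5%) lie below all KO females FA libraries (32.1% to 35.2%), while the other tables overlap.

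let-7a-5p was the most abundant member in 24 of the 28 libraries, let-7f-5p in 3 and let-7b-5p in 1. In KO females let-7a-5p made up 42.2% of the family after FA and 33.1% after O3, clear of let-7f-5p (26.0% and 29.4%) in both groups. In KO males let-7a-5p (31.9% after FA, 32.6% after O3) and let-7f-5p (30.6% and 30.5%) overlapped in both groups. In co-ex males let-7a-5p held 32.8% after FA, clear of let-7f-5p at 24.6%, and 33.5% after O3, where its range met that of let-7f-5p at 27.7%. In co-ex females let-7a-5p and let-7f-5p were near each other (25.5% and 20.2% after FA, 22.4% and 22.9% after O3).

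The middle of the order differed more between tables. In co-ex females let-7b-5p took 14.0% of the family after FA and 15.2% after O3, the third place in both, but 4.10% and 4.60% in co-ex males and 1.63% and 4.24% in KO females. let-7c-5p took 12.7% and 14.7% in co-ex females, 6.86% and 7.71% in co-ex males, and 2.66% and 7.65% in KO females. In co-ex females the ranges of let-7b-5p, let-7c-5p and let-7g-5p overlapped from one to the next in both groups, so these places were not separated beyond the spread. miR-98-5p was the least abundant member in all 8 groups, at 0.480% to 0.825% of the family, and its range was clear of every other member in 7 of them. In KO males FA it met that of let-7b-5p, since replicate 1 held 1189 of let-7b-5p and 3487 of miR-98-5p.

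**Figure D2:**
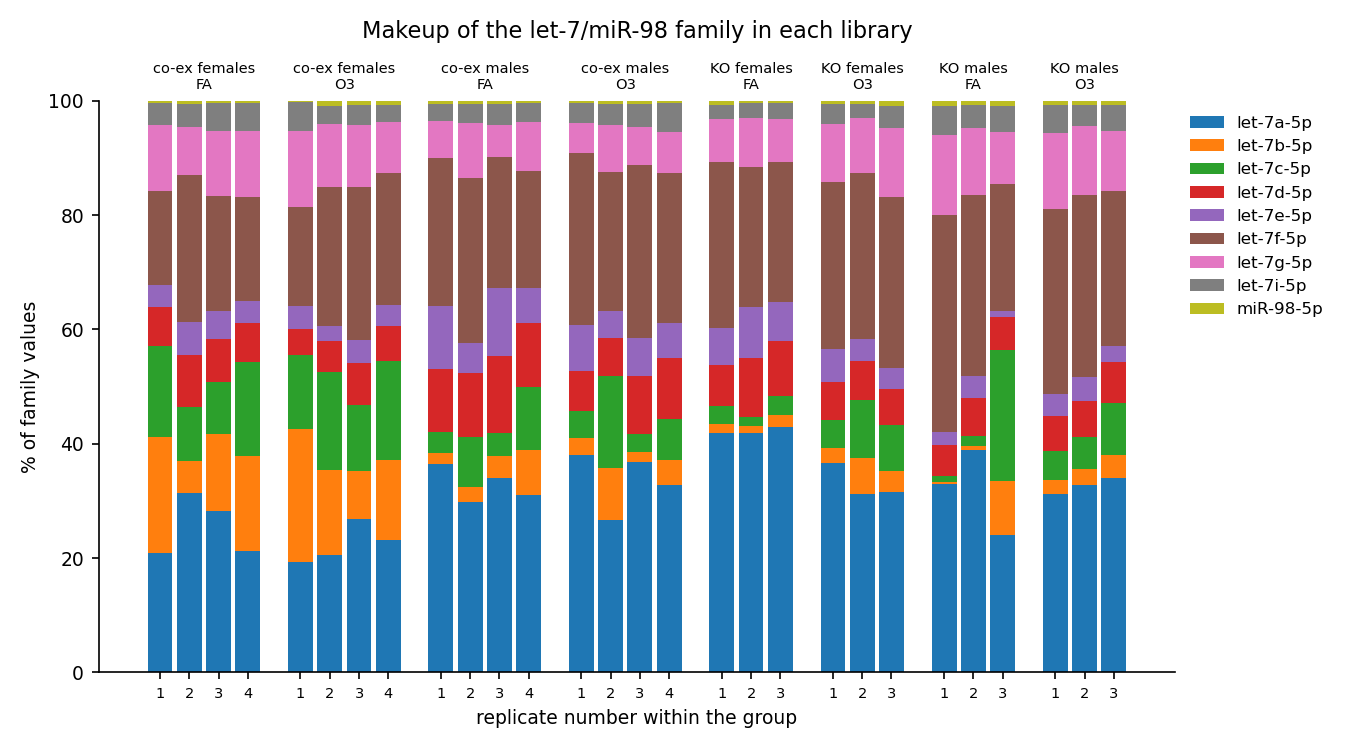
Makeup of the family in each library: stacked bars give each member's percent of the summed family values (y axis, to 100%), by replicate number within the 8 groups (x axis). let-7b-5p and let-7c-5p (orange and green) are wide in co-ex females and in KO males FA replicate 3 and narrow in the KO females FA libraries and the other KO males FA libraries.

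In KO females let-7a-5p, let-7d-5p and let-7e-5p fell after O3, let-7f-5p, let-7g-5p, let-7i-5p and miR-98-5p had lower means that did not pass the test, and let-7b-5p and let-7c-5p had higher means that did not pass it. By limma on log2(value + 1) with Benjamini-Hochberg adjustment at 0.1, 3 of 9 members were called, all lower after O3, where 42 of 319 miRNAs tested were called (13.2%) and 10 of them lower (3.13%). The median log2 difference, O3 minus FA, was -0.50 over the members and 0.06 over all 319. In bulk RNA, a lower value from fewer cells of a type and one from less RNA per cell cannot be told apart. Nor can exposure be fully told apart here from the split of the library codes given above.

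let-7a-5p, the most abundant member, had normalized values of 83488, 87346 and 71494 in the KO females FA libraries and 47149, 31179 and 34978 in the O3 libraries. Every O3 library was below every FA library, the log2 difference was -1.11 (SE 0.21), and the adjusted p by limma was 0.0126. As a share of the library let-7a-5p held 13.8% to 14.7% after FA and 6.52% to 9.36% after O3. Its mean share dropped by 6.72 points, more than that of any other member, while the mean share of the family dropped by 11.1 points.

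let-7d-5p, made from the same cluster on chromosome 13, had values of 14307, 21553 and 16179 after FA and 8633, 6922 and 6980 after O3. The groups did not overlap, and the log2 difference was -1.19 (SE 0.23, adjusted p by limma 0.0126). let-7e-5p, made from the Mir125a cluster, had values of 13141, 18449 and 11316 after FA and 7412, 3726 and 3982 after O3, again with no overlap, and its log2 difference was -1.55 (SE 0.32, adjusted p by limma 0.0157).

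let-7f-5p, the third member of the chromosome 13 cluster, had values of 57815, 50873 and 40810 after FA and 37526, 29017 and 33289 after O3. All 3 O3 libraries were lower, but the log2 difference of -0.58 (SE 0.21) did not pass the test (adjusted p by limma 0.136). let-7i-5p also had every O3 library (4341, 2421 and 4231) below every FA library (5050, 5411 and 4616), with a log2 difference of -0.50 (SE 0.28) that did not pass (adjusted p by limma 0.314). let-7g-5p at -0.34 (SE 0.23) and miR-98-5p at -0.18 (SE 0.36) had overlapping groups.

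let-7c-5p and let-7b-5p stood on the other side of zero. let-7c-5p had values of 6150, 3535 and 5324 after FA and 6204, 10049 and 8940 after O3, with every O3 library above every FA library, although the lowest O3 value and the highest FA value were close. Its log2 difference was 0.76 (SE 0.29, adjusted p by limma 0.147), and that of let-7b-5p was 0.58 (SE 0.30, adjusted p by limma 0.281), with overlapping groups. In all, 6 of 9 members had groups that did not overlap in KO females, 5 lower and 1 higher after O3, against 31.3% of all miRNAs tested there. Within a library, the ratio of let-7c-5p to let-7a-5p, which no scaling of the library changes, was 0.0405 to 0.0745 after FA and 0.132 to 0.322 after O3 in KO females.

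Leaving out KO females O3 replicate 3 left let-7d-5p as the 1 member called, where 25 of 343 miRNAs were called (7.29%). Its log2 difference was -1.14 (adjusted p by limma 0.0811), with adjusted p by limma of 0.102 for let-7a-5p and 0.105 for let-7e-5p. Leaving out KO females O3 replicate 1 gave 5 members among 52 of 348 miRNAs called (14.9%), with let-7c-5p higher (0.96, adjusted p by limma 0.093) and let-7f-5p lower (-0.67, adjusted p by limma 0.0987) beside the 3 above.

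**Figure D3:**
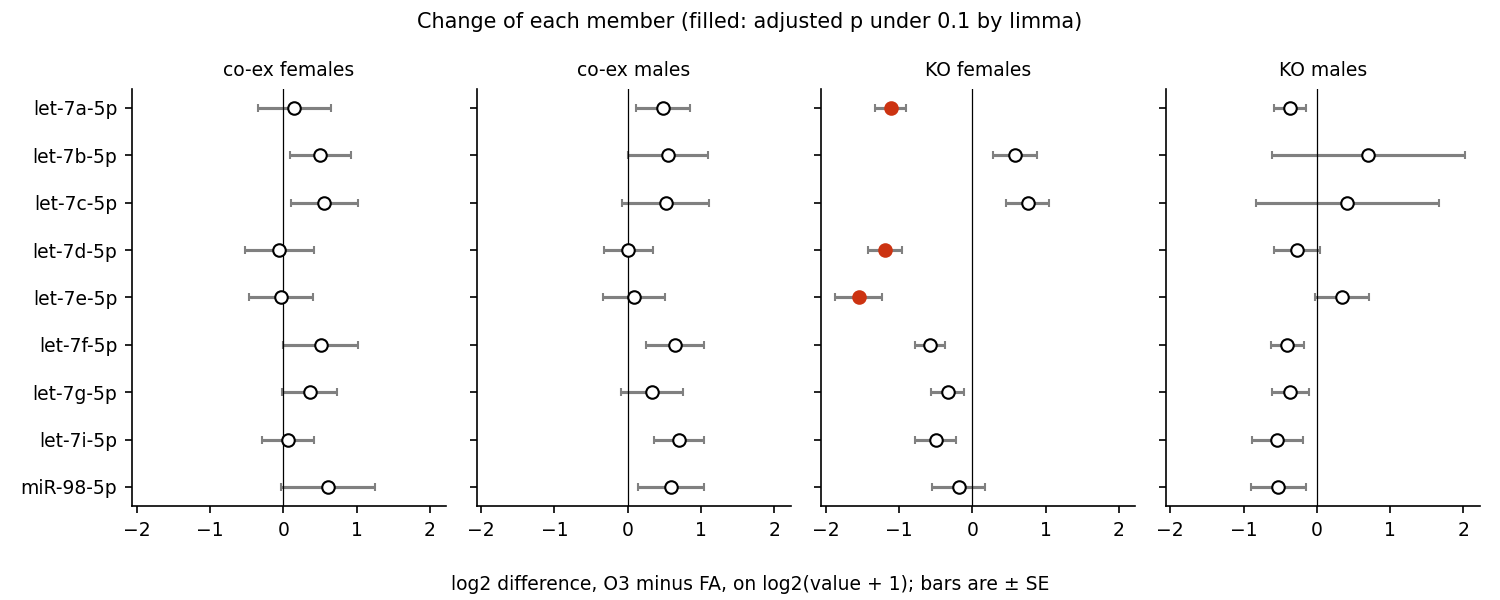
Log2 difference, O3 minus FA, of each member on log2(value + 1) (x axis, with SE) in the 4 tables, with filled points for an adjusted p under 0.1 by limma. In KO females let-7a-5p (-1.11), let-7d-5p (-1.19) and let-7e-5p (-1.55) are filled, and let-7b-5p and let-7c-5p lie to the right of zero; no member is filled in the other tables.

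Markers of other cells moved in the same libraries. A list of 11 miRNAs known from epithelium, such as miR-200 and miR-375, held 0.168% to 0.463% of the values in KO females FA and 2.11% to 3.67% in KO females O3, with 8 of its 10 tested members called higher and miR-34b-5p at 0 in all FA libraries. The 7 myeloid miRNAs held 17.7% to 19.5% after FA and 13.9% to 17.7% after O3, with 0 called by limma. Their median log2 difference was -0.46, near that of the members (-0.50). Of the 7, 2 had every O3 library below every FA library, against 31.3% of all miRNAs tested with groups that did not overlap in either direction. The 4 red-cell miRNAs, of which 3 were listed, held 0.612% to 3.23% after FA and 0.434% to 2.38% after O3, with 0 called by limma. A list of 3 muscle miRNAs, of which 2 were listed, held at most 0.0124% in the FA libraries and 8.53% in KO females O3 replicate 3. With the epithelial, red-cell and muscle lists taken out of the total, a choice made after seeing the data, the family held 34.9% ± 2.22 of the rest in KO females FA and 24.7% ± 2.18 in KO females O3 (n = 3 each). This could change the share only by the little that the lists held. It left in any let-7 reads and other miRNAs from those cells, so it cannot decide their part. The part of these other cells in the values of single members was not tested.

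The neighbours of the let-7 hairpins did not share one direction in KO females. Of the 5 cluster partners tested, 2 were called by limma: miR-125a-5p, encoded beside let-7e, was lower after O3 (mean 40193 to 18479, log2 difference -1.26, SE 0.38, adjusted p 0.0801), and miR-99a-5p, encoded beside let-7c-1, was higher (mean 148 to 595, log2 difference 1.92, SE 0.61, adjusted p 0.098). miR-99b-5p, which also belongs to the let-7e cluster and was singled out after its values were seen, had means of 12588 and 13310 (log2 difference 0.02, SE 0.27, adjusted p by limma 0.984). Elsewhere limma called 0 of the 5 partners, with 1 at an unadjusted p under 0.05, miR-125a-5p in co-ex females (log2 difference -1.03, SE 0.41, adjusted p by limma 0.73).

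The other arms of the hairpins, strands that are mostly degraded, together held 0.526% to 1.20% of the library as group means. let-7d-3p was the most abundant of them. In KO females its mean was 6562 after FA and 3806 after O3, with a log2 difference of -0.81 (SE 0.27, adjusted p by limma 0.114) near the threshold. Of the other arms, of which 4 to 9 were tested in a table, limma called 0, and let-7d-3p in KO females was the 1 with an unadjusted p under 0.05.

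How reads were assigned between the members and other miRNAs with a like 5' end was not given in the sources used here. miR-1961 and let-7k carry the same bases 2 to 8, and both are shown for that reason.
mmu-miR-1961: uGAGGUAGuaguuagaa
mmu-let-7k: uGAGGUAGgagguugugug
miR-1961 had values of 11.9, 68.8 and 48.9 in KO females FA and 1212, 409 and 857 in KO females O3. It was called higher, with a log2 difference of 4.41 (SE 0.74, adjusted p by limma 0.00728). In KO males it had values of 21.3, 39.4 and 212 after FA and 1294, 910 and 1800 after O3, with no overlap and a log2 difference of 4.48 (SE 0.85, adjusted p by limma 0.103). In co-ex females it ranged from 145 to 1698 after FA and from 276 to 2413 after O3, with means of 1029 and 1002. Those means were above miR-98-5p (139 and 249) and below let-7i-5p (1153 and 1183) in the same groups. In co-ex males miR-1961 had means of 80.0 after FA and 305 after O3 (log2 difference 1.67, SE 1.15, adjusted p by limma 0.944). Its mean of 826 in KO females O3 was near that of miR-98-5p there (796), against 37769 for let-7a-5p, and let-7k, listed in 3 tables, was never above 48.3.

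In KO males O3 left the family without a call, and a single library decided the values of 2 members. By limma 0 of 9 members were called, where 4 of 440 miRNAs tested were called (0.909%), and 0 members had an unadjusted p under 0.05. edgeR and DESeq2 on the recovered reads also called 0 members, and DESeq2 gave let-7b-5p and let-7c-5p no adjusted p. let-7a-5p had values of 121120, 137707 and 144948 after FA and 98975, 98974 and 114934 after O3, with no overlap (log2 difference -0.37, SE 0.22, adjusted p by limma 0.81). let-7f-5p had values of 139449, 112605 and 133721 after FA and 102592, 96231 and 91924 after O3, also with no overlap (log2 difference -0.40, SE 0.22, adjusted p by limma 0.768). These were the 2 members of 9 whose groups did not overlap, against 12.7% of all miRNAs tested.

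let-7c-5p had values of 4226 and 6230 in KO males FA replicates 1 and 2 but 138302 in replicate 3, against 16444, 16876 and 31224 after O3. let-7b-5p behaved alike, with values of 1189, 2808 and 57390 after FA and 7476, 8101 and 13694 after O3. With all libraries the log2 differences were 0.42 (SE 1.25) for let-7c-5p and 0.70 (SE 1.32) for let-7b-5p. Without FA replicate 3 both were higher after O3, by 2.00 for let-7c-5p and 2.36 for let-7b-5p on the log2 scale (adjusted p by limma 0.000336 for each), in a fit that called 86 of 479 miRNAs (18%). That library is the extreme one for these same members, so this p is no independent test of them. Leaving out FA replicate 1 instead gave -0.52 for let-7c-5p and -0.43 for let-7b-5p, and leaving out FA replicate 2 gave -0.24 and 0.19.

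KO males FA replicate 3 also differed in the marker lists. Its epithelial list held 2.83% of the values, against 0.225% and 0.273% in the other KO males FA libraries and 2.17% to 2.81% in KO males O3. Its myeloid list held 4.52%, against 31.4% and 24.7% in the other FA libraries and 12.2% to 22.3% after O3, and no marker of either list was at 0 in it. Its muscle list held 0.387%, against at most 0.0321% in the other KO males. The part of other cells in its let-7b-5p and let-7c-5p values was not tested.

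**Figure D4:**
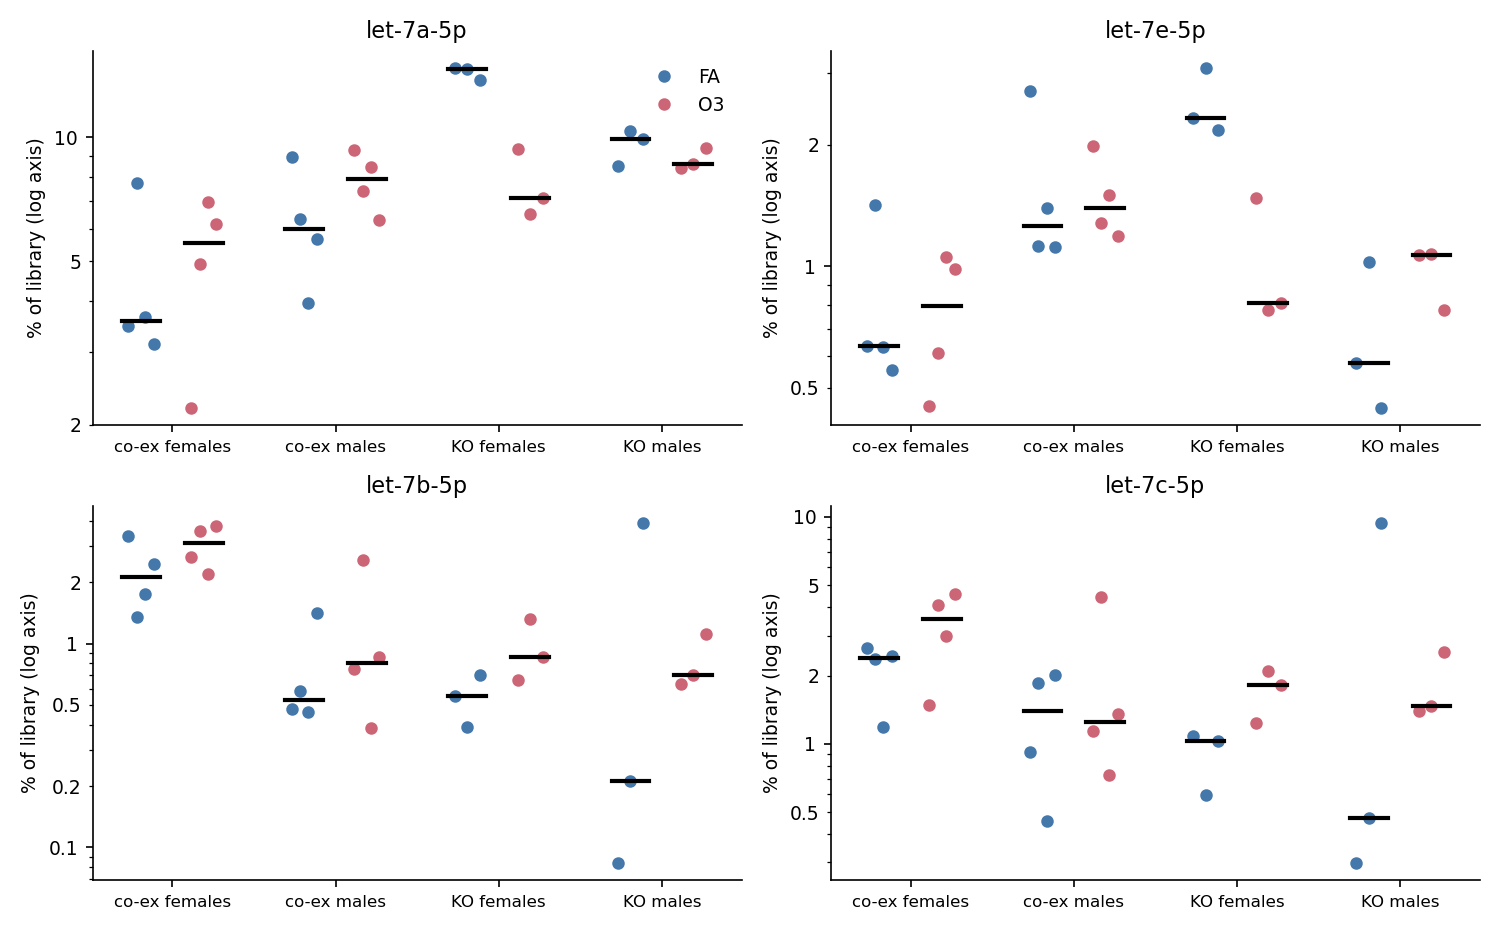
Share of all miRNA values (y axis, percent, log axis) taken by let-7a-5p, let-7e-5p, let-7b-5p and let-7c-5p in each library (points), with the median of each group (line), after FA and O3. let-7a-5p and let-7e-5p are lower after O3 in KO females, and KO males FA replicate 3 stands alone at 3.92% for let-7b-5p and 9.44% for let-7c-5p.

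In co-ex mice the family gave 0 calls after O3. In co-ex females limma called 0 of 9 members, where 1 of 271 miRNAs tested was called (0.369%), and 0 members had an unadjusted p under 0.05. edgeR and DESeq2 called 0 members. The log2 differences ran from -0.05 for let-7d-5p to 0.61 for miR-98-5p (SE 0.36 to 0.64 over the members). 0 of 9 members had groups that did not overlap, against 4.06% of all miRNAs tested. let-7a-5p had values of 4451 to 13096 (median 5660) after FA and 3668 to 10231 after O3, and let-7f-5p of 3834 to 10701 after FA and 3314 to 10170 after O3. The highest FA value came from replicate 2 and the lowest O3 value from replicate 1 for both. The red-cell list held 1.27% to 13.7% in co-ex females FA and 0.283% to 0.428% in co-ex females O3, and its part in these values was not tested.

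In co-ex males limma called 0 of 9 members and 0 of 312 miRNAs tested (0%), with 11 miRNAs and 0 members at an unadjusted p under 0.05, and edgeR and DESeq2 called 0 miRNAs. All 9 log2 differences were above zero with the deposited scaling, from 0.01 for let-7d-5p to 0.70 for let-7i-5p, beside a median of 0.18 over all miRNAs tested, and those of let-7d-5p and let-7e-5p turned negative with each library scaled to its total (-0.0928 and -0.0168). let-7i-5p, one of the less abundant members, had values of 2844, 2345, 1441 and 1621 after FA and 2942, 3613, 3360 and 3024 after O3. It was the 1 member of 9 whose groups did not overlap, against 2.88% of all miRNAs tested, and its log2 difference of 0.70 (SE 0.35) had an adjusted p by limma of 0.944. Scaling each library to its total moved the median log2 difference of all miRNAs by 0.20 in KO females, 0.24 in KO males and -0.11 in co-ex males.

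Responses to O3 were then compared between tables by limma, with the log2 change in one table taken off that in the other. Each pair of comparisons that uses a table shares its libraries. The library codes of co-ex and KO do not mix, nor do those of co-ex males and females. Genotype, and sex in co-ex, therefore cannot be told apart from what the codes stand for. Between males and females of KO, 0 of 9 members were called, and 0 of 309 miRNAs tested (0%). 17 miRNAs had an unadjusted p under 0.05, among them let-7e-5p, let-7d-5p and let-7a-5p. The change of let-7e-5p was 1.89 higher in KO males than in KO females on the log2 scale (SE 0.50, adjusted p by limma 0.758), that of let-7d-5p 0.92 higher (SE 0.38) and that of let-7a-5p 0.75 higher (SE 0.31). edgeR called 0 members, and DESeq2 on the recovered reads called 2 miRNAs, one of them let-7e-5p (1.83, adjusted p by DESeq2 0.0989). Between males and females of co-ex, limma called 0 of 9 members and 0 of 249 miRNAs tested (0%), with 8 miRNAs and 0 members at an unadjusted p under 0.05, while edgeR and DESeq2 each called 1 miRNA that was no member.

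Between co-ex and KO females, limma called 0 of 9 members, where 21 of 241 miRNAs tested were called (8.71%). The change of let-7e-5p was 1.52 higher in co-ex than in KO (SE 0.59, adjusted p by limma 0.15), that of let-7a-5p 1.27 higher (SE 0.58, adjusted p by limma 0.247) and that of let-7d-5p 1.14 higher (SE 0.60, adjusted p by limma 0.357), and 2 members, let-7e-5p and let-7a-5p, had an unadjusted p under 0.05. edgeR called 0 members and DESeq2 called 5, let-7a-5p, let-7d-5p, let-7e-5p, let-7f-5p and let-7g-5p, among 35 of 238 miRNAs (14.7%). Leaving out co-ex females O3 replicate 1 gave 4 member calls by limma, where 11.6% of all miRNAs tested were called. Without co-ex females FA replicate 2 there were 2 (10.1% of all) and without KO females O3 replicate 1 there was 1 (11.2% of all). Between co-ex and KO males, limma called 0 of 9 members and 0 of 305 miRNAs tested (0%), with 6 miRNAs at an unadjusted p under 0.05. One of these was let-7i-5p, whose change was 1.24 higher in co-ex (SE 0.48, adjusted p by limma 0.949), and edgeR and DESeq2 called 0 miRNAs.

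Males and females of the same genotype and exposure were compared on the recovered reads by edgeR's quasi-likelihood test. In co-ex the library codes of the sexes do not mix, so sex there cannot be told apart from what the codes stand for. In co-ex after FA, let-7b-5p was lower in males (log2 difference -1.73, males minus females, adjusted p by edgeR 0.0457), the 1 member called of 9. Over all miRNAs 33 of 238 tested were called (13.9%), 29 of them lower in males, so a call in this direction was not particular to the family. let-7b-5p held 3.37%, 1.35%, 1.75% and 2.47% of the library in females and 0.476%, 0.582%, 0.460% and 1.42% in males, so the lowest female library and the highest male library crossed. The red-cell list held 1.27% to 13.7% in co-ex females FA, where 3 of its miRNAs were listed, and 0.0993% to 0.446% in co-ex males FA, where 2 were, with no overlap. The epithelial list, at 1.30% to 3.28% and 0.496% to 2.97%, overlapped, and the part of these cells in the let-7b-5p call was not tested. The call was lost without co-ex females FA replicate 1 or 4, without co-ex males FA replicate 1 or 2 (log2 difference -1.77 to -1.21 in these 4 fits, adjusted p by edgeR 0.104 to 0.272), and with no filter (-1.37). Without co-ex females FA replicate 2 there were 3 calls, let-7b-5p, let-7d-5p and let-7e-5p, among 68 of 254 miRNAs (26.8%).

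In co-ex after O3 edgeR called 0 of 9 members, where 19 of 244 miRNAs tested were called (7.79%). let-7b-5p was at -1.41 and let-7e-5p at 1.15 on the log2 scale, males minus females (adjusted p by edgeR 0.128 for each), and these 2 had an unadjusted p under 0.05. DESeq2 called both, among 59 of 238 miRNAs (24.8%). Without co-ex males O3 replicate 2, in which let-7b-5p was at 9445 against 1444 to 2721 in the other 3, edgeR called let-7b-5p (-2.12), let-7c-5p (-1.54) and let-7e-5p (1.16), among 71 of 256 miRNAs (27.7%). The muscle list held 0.0313% to 0.0661% in co-ex females O3 and 0.00429% to 0.00767% in co-ex males O3, and its part in these values was not tested.

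In KO after FA edgeR called 0 of 9 members and 0 of 301 miRNAs tested (0%), with 23 miRNAs at an unadjusted p under 0.05. let-7e-5p, at -1.80 (adjusted p by edgeR 0.507), was the 1 member among these. It held 2.32%, 3.10% and 2.18% of the library in KO females FA and 0.577%, 1.02% and 0.445% in KO males FA, with no overlap. DESeq2 called 14 of 272 miRNAs, let-7e-5p among them (-1.71, adjusted p by DESeq2 0.0303). In KO after O3 edgeR called 0 of 9 members and 0 of 311 miRNAs tested (0%), with 28 miRNAs and 1 member, let-7i-5p (0.77), at an unadjusted p under 0.05, and DESeq2 called 5 miRNAs and 0 members.

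The members did not all follow the family sum equally from library to library. Likeness was measured as the SD over the 28 libraries of the log2 ratio of a miRNA to the family sum, with 1 added to both values, after the mean of each table was taken off. It was 0.252 for let-7i-5p, 0.281 for let-7g-5p, 0.302 for let-7f-5p, 0.314 for let-7a-5p and 0.317 for let-7d-5p, against a median of 1.25 over the 255 miRNAs ranked. Each member is itself a part of the sum, and the abundant ones the most. miR-98-5p (0.424) and let-7e-5p (0.548) followed it less closely, and let-7c-5p (1.05) and let-7b-5p (1.12) were nearer to the median of all miRNAs. KO males FA replicate 3 is 1 of the 28 libraries behind these values.

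Among pairs of members, let-7a-5p kept the most constant ratio to let-7f-5p (SD 0.240) and let-7d-5p (0.247). Each of these has a hairpin in the chromosome 13 cluster beside Mirlet7a-1. The remaining pair of that cluster, let-7d-5p and let-7f-5p, was looser (0.389) than let-7g-5p and let-7i-5p, from different chromosomes (0.282). let-7b-5p and let-7c-5p, whose hairpins are also neighbours, had an SD of 0.426 to each other, but of 1.41 and 1.38 to let-7e-5p, the loosest pairs. let-7a-5p and let-7f-5p differ by 1 base, as do let-7b-5p and let-7c-5p, and the part of read assignment in their ratios was not tested. The other miRNAs nearest to the family sum were miR-26b-5p (0.331), miR-16-5p (0.383), miR-103-3p (0.463), miR-26a-5p (0.466) and miR-15a-5p (0.490). All of these values share the libraries and their depth, while the size factor of a library cancels in such a ratio, apart from the 1 added to each value.

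**Figure D5:**
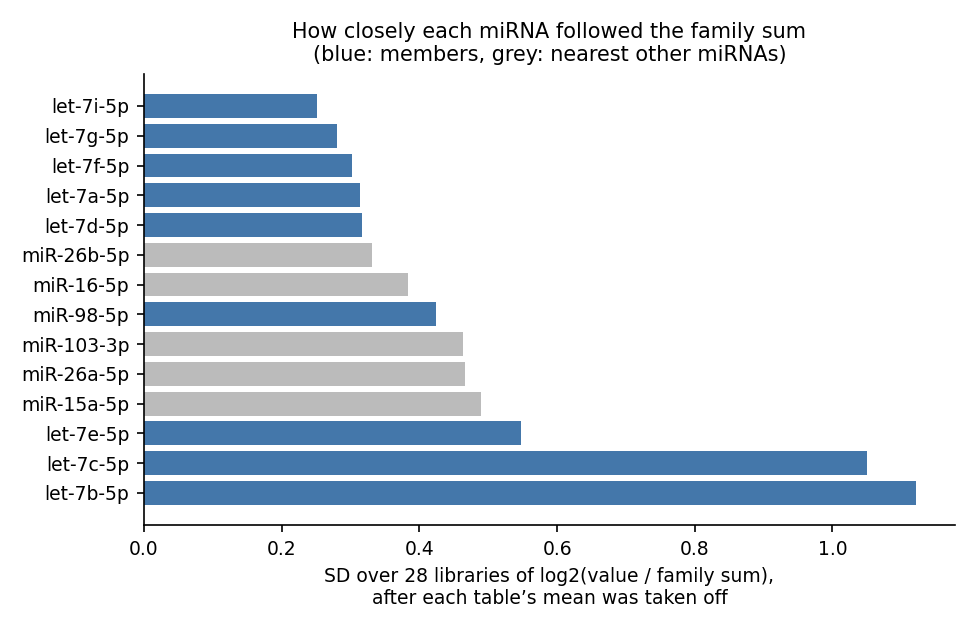
SD over 28 libraries of the log2 ratio to the family sum, after each table's mean was taken off (x axis), for the 9 members (blue) and the 5 nearest other miRNAs (grey). let-7i-5p (0.252) is the nearest, and let-7c-5p (1.05) and let-7b-5p (1.12) lie far beyond the rest.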

How the data were processed

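AM small RNA libraries were prepared with the NEXTflex kit, sequenced, passed by CASAVA, trimmed with the FASTX-Toolkit, and aligned and counted with Chimira by the authors. The genome build and miRBase release were not given in the sources used here. The deposited library columns are a signal, normalized values in which counts were divided by a size factor within each table. The deposited fold changes, p-values, q-values and ranks of the authors' comparisons were not used. All values in each library were whole multiples of 1 step (tolerance 0.001), so reads were recovered.

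Limma (3.58.1, under R 4.3.3) compared O3 with FA, and these changes between tables, on log2(value + 1) with a variance trend. A miRNA was tested if its value reached 5 in enough libraries to fill the smaller of the groups. Males and females were compared by edgeR's (4.0.16) quasi-likelihood test with TMM on recovered reads. DESeq2 was version 1.42.0, and shares were computed with pandas 2.3.3. P-values were Benjamini-Hochberg adjusted over all miRNAs tested, at 0.1. Tests were checked on simulated counts for the sign of their calls. The changes set there were larger than those of the members called with all libraries, so this check does not cover changes of their size. Alternatives were total-count scaling, DESeq2 size factors, no filter, a pseudocount of 0.1, edgeR and DESeq2, a threshold of 0.05, a replicate block and each library left out. Log2 differences understate changes of low miRNAs.

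The text names all members, the 5 miRNAs nearest to the family sum among those listed in all 4 tables with a mean of at least 5 in each, hairpin neighbours and other arms that passed the test or were the highest of their list, and the sharers of the seed. The members, lists and tests were chosen with earlier results of these data known.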

Additional observations from a re-analysis of the deposited data

Results flagged for a closer look

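In the co-ex groups of 4 libraries, 40 sets of values (9 members and the family share in 4 groups) were searched for a far sample. A sample was flagged if its gap to the nearest other exceeded Dixon's 95% critical share of the whole range. In all, 11 were found, where chance flags about 1 in 20 independent sets. These sets share libraries, and the family share sums the members, so they are not independent and the rate does not test their number. In co-ex females FA the high sample was replicate 2 for let-7d-5p (3785), let-7e-5p (2392), let-7f-5p (10701), let-7i-5p (1628) and miR-98-5p (253). In co-ex females O3 the low sample was replicate 1 for let-7f-5p (3314) and miR-98-5p (44.2). In co-ex males O3 replicate 2 was high for let-7b-5p (9445) and let-7c-5p (16331), and replicate 4 was low for let-7f-5p (16073). In co-ex males FA replicate 4 was high for let-7b-5p (3768). Groups of 3 were not searched in this way. With all libraries, limma and edgeR called no member's difference in response between tables, while DESeq2 called 5 between co-ex and KO females and 1 between KO males and females.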

How the results depend on the processing

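With settings other than a left-out library, the number of members called moved in 6 cases. DESeq2 gave 1 for the response of KO males against KO females, 5 for co-ex against KO females, 2 for co-ex males against females after O3 and 1 for KO males against females after FA. No filter gave 0 for co-ex males against females after FA, and the replicate block gave 1 (let-7b-5p, -1.59) for co-ex males against females after O3, where it raised the calls over all miRNAs from 19 to 63. It moved no other count of members. The replicate numbers were not taken as pairs, and whether they pair libraries was not given in the sources used here. The deviations of same-numbered libraries correlated at -0.31 to 0.42, and in 0 of 8 comparisons were all of these above 0.1. Every library correlated best with its own number only between KO males and females after FA (6 of 6), a hint from the data and not the design. In the other 7 comparisons 2 to 6 libraries did. The 6, of 8 libraries, were between co-ex males and females after O3, where the block raised the calls. The correlations there were 0.037, 0.305, 0.419 and 0.258. With 1 library left out, the members called ranged from 1 to 5 in KO females, 0 to 2 in KO males, 0 to 4 for co-ex against KO females, and 0 to 3 for co-ex males against females after FA and after O3.

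Some members that were not called changed sign. In co-ex males let-7d-5p became -0.0928, -0.11 and -0.0348 and let-7e-5p -0.0168, -0.14 and -0.0569 under total-count scaling, edgeR and DESeq2. In KO females miR-98-5p became 0.00507 under total-count scaling. In KO males let-7c-5p became -1.03 and -1.21 and let-7b-5p -0.89 and -1.07 under edgeR and DESeq2. With 1 library left out, the values in co-ex females ran from -0.24 to 0.32 for let-7d-5p, -0.0103 to 0.24 for let-7i-5p, -0.22 to 0.31 for let-7e-5p and -0.0352 to 0.48 for let-7a-5p. In co-ex males they ran from -0.12 to 0.20 for let-7d-5p, -0.0262 to 0.84 for let-7c-5p and -0.15 to 0.45 for let-7e-5p. In KO females they ran from -0.43 to 0.10 for miR-98-5p, and in KO males from -0.52 to 2.00 for let-7c-5p and -0.43 to 2.36 for let-7b-5p. Apart from fits without 1 library, the causes were not tested. The change of the family share in KO males turned from -4.31 points to 0.306 with medians and 0.662 without FA replicate 3, a library that itself widens the SD. In KO females it ran from -12.6 to -10.0, and in both co-ex tables it stayed above zero, under all alternatives run. Depth limits miR-98-5p and the low other arms most.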
